A study of Capra hircus with 3 samples.

Results

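The genes described here carry water and monovalent ions across the membranes of the mammary gland. There were 8 of them, AQP1, AQP3, AQP5, ATP1B1, SLC12A2, SCNN1A, CFTR and KCNN4. They were chosen by symbol for their known function, and their values were found by goat NCBI gene ID. Of the 8 genes, 6 had values among the 13023 protein-coding genes of the deposited data. AQP5, the aquaporin of the apical membrane of many secretory epithelia, and SCNN1A, the alpha subunit of the epithelial sodium channel, had no row under their gene IDs and were not analysed here.

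Mammary gland tissue was taken from healthy Laoshan dairy goats, 4 years old and in the third lactation, at 10, 90 and 210 days after parturition, which are labelled early, peak and late lactation. The study's methods describe 5 goats, sampled by surgery at all stages. Total RNA of 5 goats was pooled at each stage into 1 library, so the spread between animals cannot be seen. A single animal may still weigh on a pool. No p-value can be given, and the differences below have no replicate check. All values are FPKM, fragments per kilobase of transcript, scaled to the number of mapped fragments, which compare genes per length, and the read number behind each value is unknown. In tissue RNA, fewer cells of a type and less RNA per cell cannot be told apart.

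Milk is kept at the osmotic pressure of blood, and water follows the lactose and the ions that secretory cells move. In the lactating epithelium the basolateral sodium pump keeps sodium low and potassium high inside the cell, cotransporters load chloride, channels release potassium and chloride, and aquaporins let water through. Tight junctions seal the epithelium during lactation, so that milk holds more potassium and less sodium and chloride than plasma does.

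Each library is called early, peak or late here by its label, and that labelled peak lactation stood apart. The 9 milk secretion genes that had values, among them the caseins CSN1S1 and CSN3, summed to 62567 FPKM in it, against 217442 FPKM in the early and 164690 FPKM in the late library. T lymphocyte markers summed to 75.2 FPKM in it, against 28.5 and 12.9 FPKM, with 9 of 10 genes having values and CD3E listed at 0 in the early and peak libraries. The luminal epithelial markers, the defining genes of the tissue's secretory layer, were above 0 in every library for all 10 genes. A value listed at 0 does not show absence, since LALBA, which encodes a major whey protein, had 70053 FPKM in the early library and 0 FPKM in the late library. The late sum of the milk secretion genes counts LALBA as 0, so it cannot be set against the early sum. The 8 of these genes with a fold had a median log2 ratio of 0.31 for late over early lactation. For most lncRNA genes that could be matched, the direction from the peak to the late library ran opposite to that listed by the study. The direction listed for the P and L libraries in its supplementary data was shared for 20 of 140 genes. The direction listed there from E to L was shared by the peak library over the early one for 114 of 132 genes and by the late library over the early one for 58 of 130. That from E to P was shared by peak over early for 35 of 65 genes and by late over early for 42 of 65. The names early, peak and late library therefore stand only for the labels, and each direction that involves the peak or the late library rests on those labels.

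The transport genes fell into a set that differed in the peak library and a set that was alike in all libraries. AQP3 was lower in that library, CFTR was higher, and ATP1B1 was highest in it. For AQP1, SLC12A2 and KCNN4 the highest value was under 1.5 times the lowest. From the early to the peak library, 2 of 6 genes differed at least 2-fold, where 17.2% of 12937 protein-coding genes above 0 in both did. AQP3 was the lower one, as were 6.69% of all genes, and CFTR the higher one, as were 10.5%. From the early to the late library, 0 of 6 reached 2-fold, against 7.08% of 12777 protein-coding genes, of which 1.64% were higher and 5.44% lower in the late library. From the peak to the late library, 3 of 6 reached 2-fold, against 24.7% of 12807 protein-coding genes. AQP3 was the higher one, as were 8.57% of all genes, and ATP1B1 and CFTR were the lower ones, as were 16.2%. Late over early is the comparison without the peak library. With so few genes these shares are a description only. The median log2 ratio of the 6 genes was -0.06 for peak over early, -0.21 for late over early and 0.12 for late over peak lactation, and that of all protein-coding genes was 0.01, -0.03 and -0.02.

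**Figure D1:**
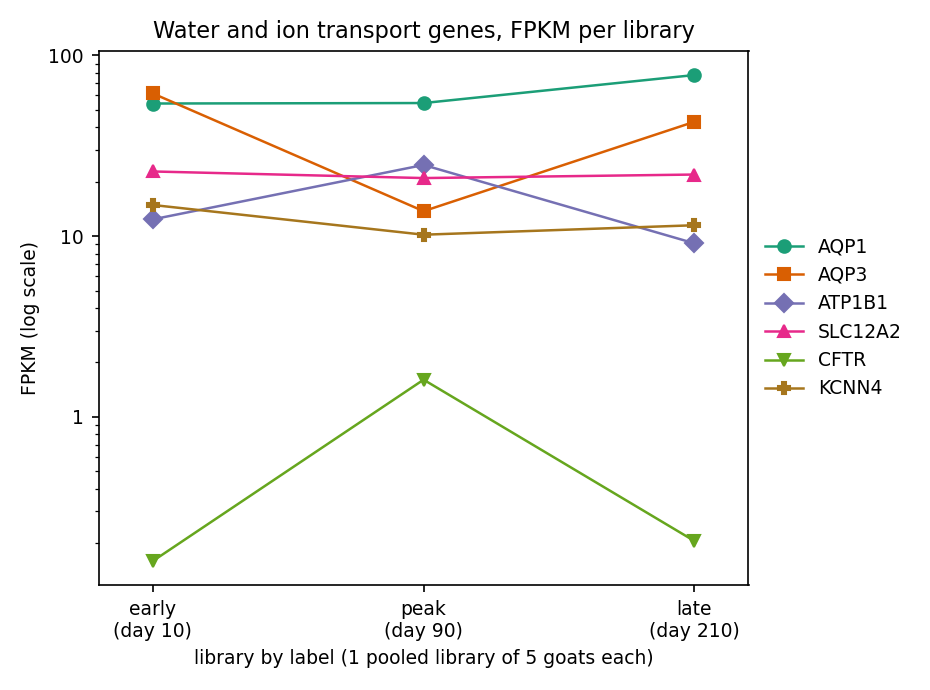
FPKM (log axis) of the 6 transport genes in the early, peak and late library, with 1 point per pooled library and lines that only join the points of a gene. AQP3 dipped to 13.7 FPKM and ATP1B1 and CFTR reached 24.8 and 1.61 FPKM in the peak library, while SLC12A2 stayed between 20.9 and 22.8 FPKM.

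AQP3 encodes an aquaglyceroporin, a channel for water and glycerol, known from the basolateral membrane of epithelia. It had 61.6 FPKM in the early, 13.7 FPKM in the peak and 42.9 FPKM in the late library. The peak library was thus the lowest, 4.48-fold below the early and 3.12-fold below the late library, with log2 ratios of -2.16 for peak over early and 1.64 for late over peak lactation. The early and late libraries were closer, with a log2 ratio of late over early of -0.52. In the early library AQP3 lay above 95.6% of the protein-coding genes that were above 0, and in the peak library above 73.9%. Its range over the libraries was larger than that of 98.3% of the 1096 genes with a mean FPKM within 1.5 times its own. AQP3 is listed as 1 locus on scaffold NW_005100741.1 from 9598109 to 9600722, and no other entry overlaps it. The low value in the peak library accompanied the low milk secretion genes, which had a median log2 ratio of -1.54 for peak over early lactation with 9 of 9 at least 2-fold lower, and their part in the AQP3 value was not tested. Against the summed luminal markers, AQP3 was 3.52% in the early, 1.12% in the peak and 2.53% in the late library. Of these sums of 1750, 1226 and 1694 FPKM, the luminal marker ELF5 alone made up 879, 244 and 875 FPKM. These shares of AQP3 therefore depend heavily on 1 gene, which was itself lowest in the peak library.

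AQP1, the water channel of endothelial and red blood cells, had 54.2, 54.5 and 77.8 FPKM in the early, peak and late libraries. Early and peak differed 1.01-fold, and the late library was 1.44-fold above early, which is under the 2-fold limit. AQP1 ranked among the most abundant genes in every library, above 94.8%, 96.3% and 96.5% of the protein-coding genes above 0. Endothelial markers, 9 of 10 with values and none at 0, summed to 154, 142 and 166 FPKM. Their median log2 ratios were -0.28 for peak over early, 0.34 for late over early and 0.54 for late over peak lactation. Those of AQP1 were 0.01, 0.52 and 0.51. The single endothelial markers went both ways for late over peak, from -0.30 to 1.06. Of the erythroid markers only HBBC and EPB42 had values, with a sum of 1.11 to 3.76 FPKM, so red blood cells could not be followed here. The share of each cell type in the AQP1 values was not tested. AQP1 is listed on scaffold NW_005100654.1 from 752430 to 764387.

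The ratio between both aquaporins does not depend on how a library is scaled. AQP1 was 0.88 times AQP3 in the early library, 3.97 times in the peak and 1.81 times in the late library. AQP3 was therefore the more abundant aquaporin in the early library and AQP1 in the other two. AQP11, an aquaporin of intracellular membranes, was the only further family member with values, at 1.73, 2.31 and 1.88 FPKM. Of the summed FPKM of these 3 aquaporins, AQP3 made up 52.4% in the early, 19.5% in the peak and 35.0% in the late library.

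ATP1B1 encodes a beta subunit of the sodium pump, needed to bring the pump to the membrane. It had 12.4 FPKM in the early, 24.8 FPKM in the peak and 9.12 FPKM in the late library. The peak library was the highest, and late over peak lactation had a log2 ratio of -1.44, a 2.71-fold difference. The peak library was 1.9995-fold above the early library, just short of the 2-fold limit, so this comparison was not called, and centring the ratios on the median of all genes would call it. The range of ATP1B1 was larger than that of 94.0% of the 2906 genes of like mean FPKM. ATP1B1 is listed on scaffold NW_005100846.1 from 1544748 to 1818136, a span of 273389 nt that is also listed for NME7, a nucleoside diphosphate kinase family gene. NME7 had 5.69, 7.42 and 5.66 FPKM, with a log2 ratio of 0.38 for peak over early lactation, and whether reads were divided correctly between the overlapping genes was not tested.

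Of the summed FPKM of ATP1B1 and ATP1B3, the other beta subunit with values, ATP1B1 made up 47.8% in the early, 64.5% in the peak and 41.3% in the late library. FXYD5, a small regulator of the pump, had 6.21, 13.2 and 4.30 FPKM and was at least 2-fold higher in the peak library than in either other library. Its log2 ratios were 1.09 for peak over early, which was 0.98 with 1 FPKM added, and -1.62 for late over peak lactation.

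SLC12A2 encodes the basolateral sodium-potassium-chloride cotransporter that loads secretory cells with chloride. It had 22.8, 20.9 and 21.9 FPKM in the early, peak and late libraries, and the highest was 1.09 times the lowest. Only 5.38% of the 12764 protein-coding genes above 0 in all libraries had a smaller range, and the median gene had a range of 1.49-fold. SLC12A2 thus stood among the steadiest genes on the deposited scale, although a spread between animals could not be seen in the pools. When each library is scaled to an equal sum over protein-coding genes, the median log2 ratio of all genes shifts by 0.79 for peak over early, and SLC12A2 shifts with it from -0.12 to 0.67, AQP1 from 0.01 to 0.80 and KCNN4 from -0.55 to 0.25. SLC12A7, a potassium-chloride cotransporter with a similar level, had 23.1, 15.0 and 20.3 FPKM. SLC12A2 is listed on scaffold NW_005100716.1 from 911722 to 1006327.

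CFTR encodes the cAMP-gated chloride and bicarbonate channel of the apical membrane. It was the least abundant of the transport genes, with 0.159 FPKM in the early, 1.61 FPKM in the peak and 0.206 FPKM in the late library. The peak library was 10.1-fold above the early and 7.80-fold above the late library, with log2 ratios of 3.33 for peak over early and -2.96 for late over peak lactation. These folds start from very low values, since of the protein-coding genes above 0 only 0.316% were lower than CFTR in the early, 12.2% in the peak and 1.29% in the late library. Genes at such a level vary more, with a median range of 2.83-fold over the 790 genes of like mean FPKM, and 91.4% of these had a smaller range than CFTR. With 1 FPKM added to both values, the log2 ratios were 1.17 and -1.11, still past the 2-fold limit. CFTR is listed on scaffold NW_005100653.1 from 18051655 to 18205148, and no other entry overlaps it.

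ANO1, a calcium-gated chloride channel, was more abundant than CFTR in every library, at 8.62, 16.6 and 4.79 FPKM. It too was highest in the peak library, with a log2 ratio of -1.80 for late over peak and of 0.95, under the limit, for peak over early lactation. ANO1 was 54.1 times CFTR in the early, 10.4 times in the peak and 23.3 times in the late library.

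KCNN4 encodes the calcium-gated potassium channel of intermediate conductance, found in secretory epithelia, in red blood cells and in activated lymphocytes. It had 14.9, 10.2 and 11.5 FPKM in the early, peak and late libraries, with log2 ratios of -0.55 for peak over early and -0.37 for late over early lactation. No comparison reached 2-fold, and the range of 1.46-fold was close to that of the median of all genes. Of the 3286 genes of like mean FPKM, 63.6% had a smaller range, and their median was 1.33-fold. T lymphocyte markers moved otherwise. All 8 with a fold were at least 2-fold higher in the peak than in the early library and at least 2-fold lower in the late than in the peak library, with median log2 ratios of 1.39 and -2.80. KCNA3, the voltage-gated potassium channel known from T lymphocytes, had 2.99, 9.84 and 1.89 FPKM, log2 ratios of 1.72 for peak over early and -2.38 for late over peak lactation. KCNN4 was 4.98 times KCNA3 in the early, 1.03 times in the peak and 6.06 times in the late library. KCNN4 is listed on scaffold NW_005100871.1 from 591210 to 604855.

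**Figure D2:**
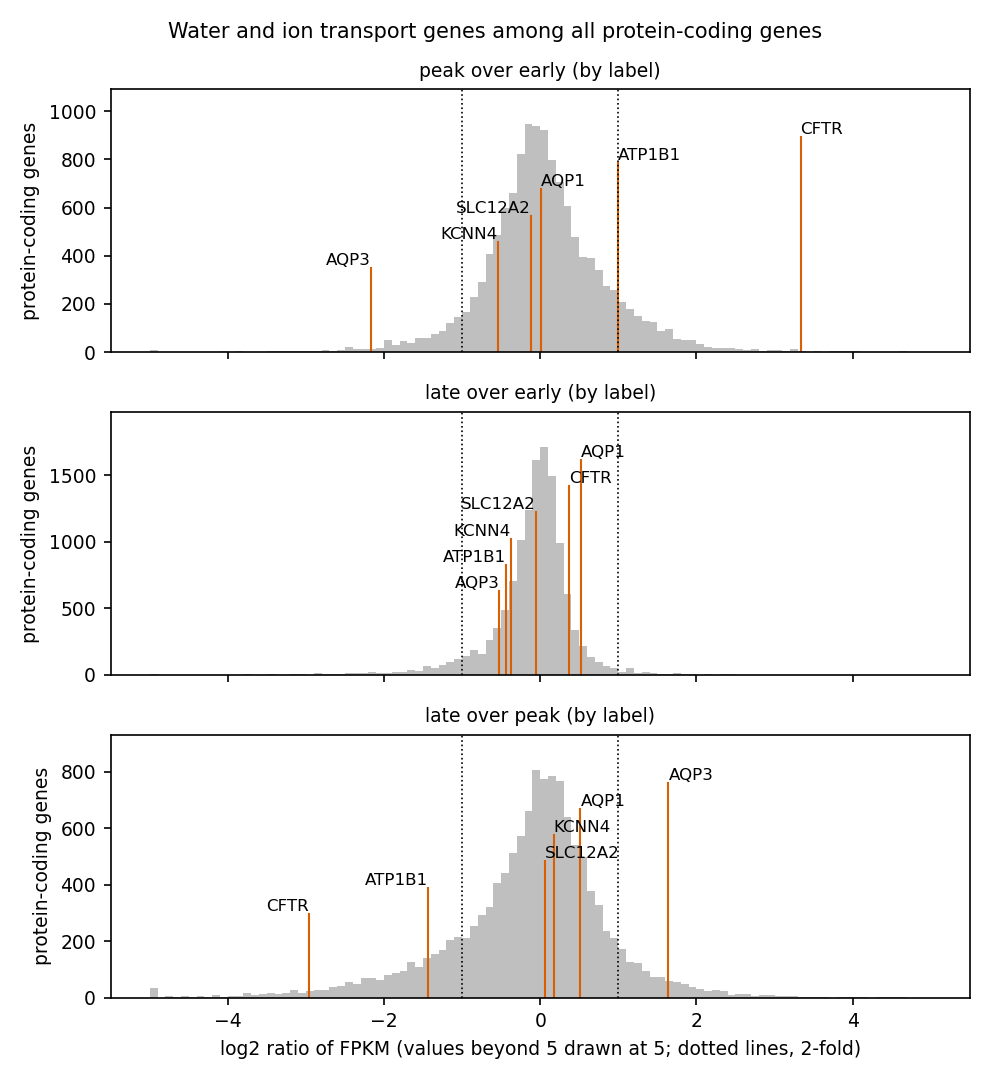
Histograms of the log2 ratio of FPKM over all protein-coding genes above 0 in both libraries for each comparison, with the 6 transport genes as vertical lines whose height has no meaning and the 2-fold limits dotted. AQP3 at -2.16 and CFTR at 3.33 lie in the tails of peak over early lactation, and all 6 genes lie inside the limits of late over early lactation.

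By level, AQP3, AQP1, SLC12A2, KCNN4, ATP1B1 and CFTR followed each other from high to low in the early library. The order was AQP1, ATP1B1, SLC12A2, AQP3, KCNN4 and CFTR in the peak library and AQP1, AQP3, SLC12A2, KCNN4, ATP1B1 and CFTR in the late library. With 1 library per stage, no pair of neighbours in these orders can be said to differ beyond a spread. CFTR was last in each order. In the peak library AQP3 stood below SLC12A2, and ATP1B1 stood above SLC12A2 and KCNN4.

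The wider pathway was taken from lists of aquaporins, pump subunits, cotransporters and their kinases, the epithelial sodium channel and its regulators, anion channels, potassium channels and exchangers. Of 138 listed symbols besides the 8 genes, 82 had values. From the early to the peak library, 22 of 82 differed at least 2-fold, 12 higher and 10 lower. From the early to the late library it was 9 of 81, 1 higher and 8 lower, and from the peak to the late library 38 of 81, 16 higher and 22 lower. These shares of 26.8%, 11.1% and 46.9% stand beside the 17.2%, 7.08% and 24.7% of all protein-coding genes given above. They rest in part on genes of low level. With at least 1 FPKM required in both libraries, and the 6 transport genes included, 12 of 69 were apart for peak over early, in place of 24 of 88. For late over early it was 2 of 69 in place of 9 of 87. The share of all protein-coding genes at that setting was not computed. The median log2 ratios of the 82 genes were 0.12, 0.00 and -0.01. By the counts above, the differences ran in both directions for peak over early and late over peak. For late over early, 8 of 9 were lower. The split depends on the scale. With the 6 transport genes included, 13 were higher and 11 lower for peak over early as deposited, 40 and 5 with an equal sum over protein-coding genes, and 12 and 16 with ratios centred on the luminal markers. For late over peak the numbers were 17 and 24 as deposited and 6 and 35 with an equal sum.

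Among the potassium channels, 7 of 19 with values differed at least 2-fold from the early to the peak library, 5 higher and 2 lower, a share of 36.8% beside the 17.2% of all protein-coding genes. Among the higher ones were KCNA3 and, named after their values were seen, KCNE3, KCNH2 and KCNMB4. KCNH2 and KCNMB4 were below 1 FPKM in the early library, at 0.176 and 0.817 FPKM. KCNE3, a small subunit that opens KCNQ1 channels in secretory epithelia, had 0.686, 4.28 and 0.784 FPKM in the early, peak and late libraries. The lower ones were KCNK6 and KCNJ15, a 2-pore and an inwardly rectifying channel. KCNK6 had 24.7, 6.18 and 24.1 FPKM in the early, peak and late libraries. KCNJ15 had 28.7, 7.38 and 26.9 FPKM. Like AQP3, both were lowest in the peak library, with log2 ratios of -2.00 and -1.96 for peak over early lactation. KCNK1, another 2-pore channel and the most abundant of this list by its mean, had 43.2, 22.2 and 48.8 FPKM and a log2 ratio of 1.14 for late over peak lactation, which was 0.53 and not called with an equal sum over protein-coding genes.

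Of 22 chloride and anion channel genes with values, 2 were at least 2-fold higher and 5 at least 2-fold lower in the peak than in the early library, a share of 31.8% in all. Over all protein-coding genes 10.5% were higher and 6.69% lower, so the count of higher genes was near the background. The higher ones were CFTR and CLIC1, an intracellular chloride channel protein with 31.0, 69.1 and 23.2 FPKM. Among the lower ones, LRRC8C, a subunit of the volume-regulated anion channel, had 32.5, 9.08 and 32.2 FPKM and a log2 ratio of -1.84 for peak over early lactation. The other lower ones, named after their values were seen, were BEST3, CLCA4, CLIC5 and LRRC8A. BEST3, CLCA4 and CLIC5 were below 1 FPKM in the peak library, at 0.496, 0.285 and 0.886 FPKM. CLCA4 was only just past the limit. An equal sum over protein-coding genes shifts peak over early by 0.79. By that shift the calls of BEST3 (-1.23), CLCA4, CLIC5 (-1.19) and LRRC8A (-1.09) would be lost. LRRC8C kept its call with an equal sum, at -1.04. CLIC4, the most abundant of the list by its mean over the libraries, had 58.7, 54.8 and 77.2 FPKM and did not reach 2-fold in any comparison. The direction in this list was thus mixed on the deposited scale.

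Among 18 exchanger and carbonic anhydrase genes with values, 4 were higher and 1 was lower at least 2-fold in the peak than in the early library, a share of 27.8% in all. Over all protein-coding genes 10.5% were higher and 6.69% lower, so the single lower gene was near the background. The higher ones were SLC4A4, SLC9A9 and, named after their values were seen, SLC4A8 and SLC4A11. SLC4A8 and SLC4A11 were below 1 FPKM in the early library, at 0.565 and 0.489 FPKM. SLC4A4, the sodium-bicarbonate cotransporter, had 1.51, 5.92 and 0.960 FPKM and a log2 ratio of 1.97 for peak over early lactation. SLC9A9, a sodium-proton exchanger of endosomes, had 3.97, 8.16 and 1.90 FPKM, and it was also at least 2-fold lower in the late than in the early library, with a log2 ratio of -1.06. Both of these calls of SLC9A9 were close to the limit. That of late over early was lost with an equal sum (-0.88) and with 1 FPKM added (-0.78), and that of peak over early with 1 FPKM added (0.88) and with ratios centred on the luminal markers (0.98). CA12, a membrane carbonic anhydrase, was the lower one, with 22.7, 10.1 and 28.0 FPKM. Its log2 ratio of -1.17 for peak over early became -0.37 with an equal sum over protein-coding genes, and its ratio of 1.47 for late over peak became 0.86, so that both calls were lost. CA4, another membrane carbonic anhydrase, which is also known from capillaries, had 2.17, 3.34 and 9.61 FPKM and was the only pathway gene at least 2-fold higher in the late than in the early library, with a log2 ratio of 2.15. Its call for late over peak lactation, at 1.52, was lost with an equal sum (0.91). SLC4A7, a bicarbonate cotransporter and the most abundant of this list by its mean over the libraries, had 22.5, 20.2 and 23.3 FPKM.

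Of the 12 cotransporter and kinase genes with values, SLC12A2 included, 1 was at least 2-fold apart for peak over early, 0 for late over early and 4 for late over peak, or 8.33%, 0% and 33.3% beside 17.2%, 7.08% and 24.7% of all protein-coding genes. These were SLC12A8, which was lowest in the peak library with 0.988, 0.125 and 1.19 FPKM, and for late over peak also the kinases WNK3 and STK39, both higher in the late library, and SLC12A5, lower in it, all named after their values were seen. Of the 8 sodium channel regulators with values, 2 were apart for peak over early, 1 for late over early and 3 for late over peak. These were 25.0%, 12.5% and 37.5% of so few genes, beside the same background of 17.2%, 7.08% and 24.7%. PRSS8, the channel-activating protease prostasin, had 46.3, 22.0 and 48.0 FPKM and was lowest in the peak library. TMPRSS4, another membrane protease, had 0.275, 2.54 and 0.391 FPKM and was highest in it. The others were USP2, lower in the late than in the early library, and NR3C2, the mineralocorticoid receptor, higher in the late than in the peak library. USP2 was below 1 FPKM in both, at 0.347 and 0.761 FPKM. These 4 genes were named after their values were seen. An equal sum shifts peak over early by 0.79 and late over peak by -0.61. By that shift the calls of PRSS8 (-1.07 and 1.12) would be lost. So would those of NR3C2 (1.40), WNK3 (1.35) and STK39 (1.07) for late over peak. Neither SCNN1B nor SCNN1G, the other channel subunits, had a row, so the channel itself was not followed. ST14, the matriptase protease that can activate this channel and the most abundant of the list by its mean over the libraries, had 47.6, 25.8 and 47.3 FPKM, with a log2 ratio of -0.88 for peak over early lactation that stayed under the limit.

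**Figure D3:**
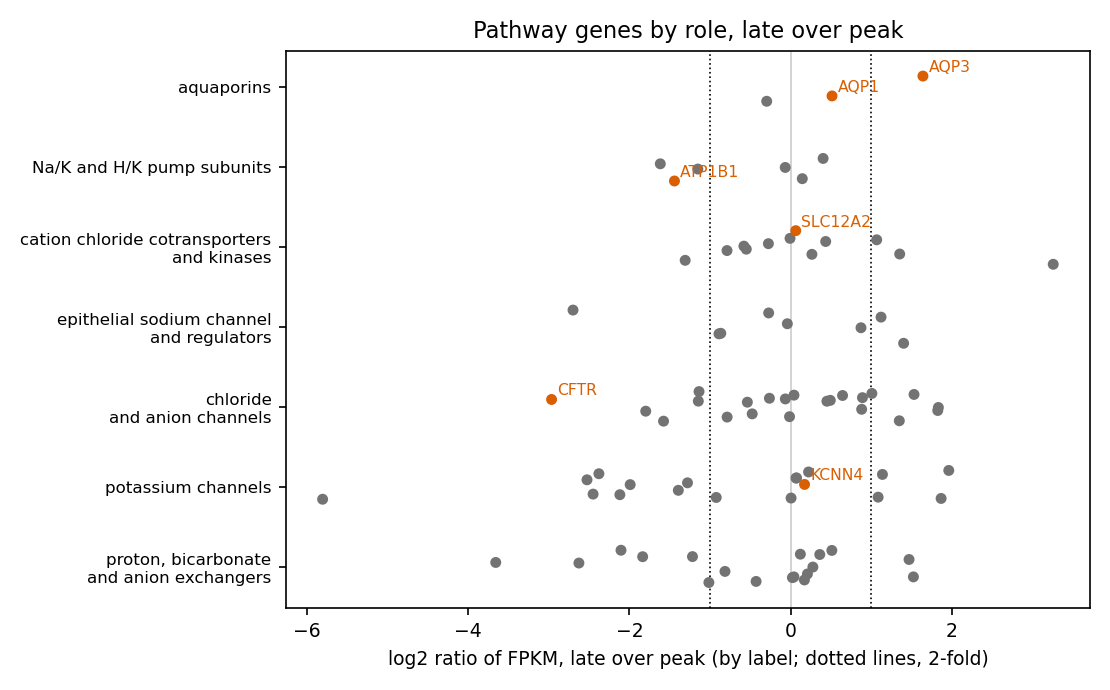
Log2 ratio of FPKM of late over peak lactation by label for each pathway gene above 0 in both libraries, 1 point per gene in rows by role, with the 6 transport genes in orange and the 2-fold limits dotted (vertical position within a row has no meaning). Of the 87 genes, 17 lie at or above and 24 at or below 2-fold, with AQP3 at 1.64 and CFTR at -2.96.

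Genes with a pattern like that of each transport gene were found by the distance between the log2 ratios of peak over early and late over early lactation, over 3 libraries and among 7495 other named genes with a mean of at least 5 FPKM, or 7496 for CFTR, which lies below that mean itself. The nearest to AQP3 were DIO2 at a distance of 0.10 and ATP13A4 at 0.11, and no gene lay within 0.1 of it. For CFTR the nearest were CCDC68 and GPR171, at 0.40 and 0.91, and again none lay within 0.1. ZEB2 was among the nearest to ATP1B1, and the nearest were MRPL48 and MYCT1 to AQP1, RSRC2 and SRSF11 to SLC12A2, and RPL10A and ZDHHC3 to KCNN4. Within a distance of 0.1 there were 12 genes for ATP1B1, 21 for AQP1, 46 for KCNN4 and 351 for SLC12A2. So few values per gene cannot tell shared patterns from coincidence.

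The cell type markers moved with the libraries as follows. For peak over early lactation, the median log2 ratio was 0.06 for 10 luminal epithelial markers, -0.28 for 9 endothelial, -0.22 for 8 basal and myoepithelial, -0.78 for 6 adipocyte and 0.64 for 9 macrophage and myeloid markers. For late over peak lactation the values were -0.12, 0.54, 0.14, 0.47 and -1.56, where the adipocyte value rests on 5 genes because PLIN4 was listed at 0 in the late library. The higher ATP1B1, CFTR, FXYD5 and KCNA3 of the peak library thus stood beside more RNA of T lymphocyte and macrophage markers, and the lower AQP3, KCNK6 and KCNJ15 beside less RNA of milk secretion genes. Their part in these values was not tested. The luminal markers did not move together, since ELF5, a transcription factor of the secretory lineage, had 879, 244 and 875 FPKM, while KRT7 had 76.6, 157 and 48.6 FPKM.

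**Figure D4:**
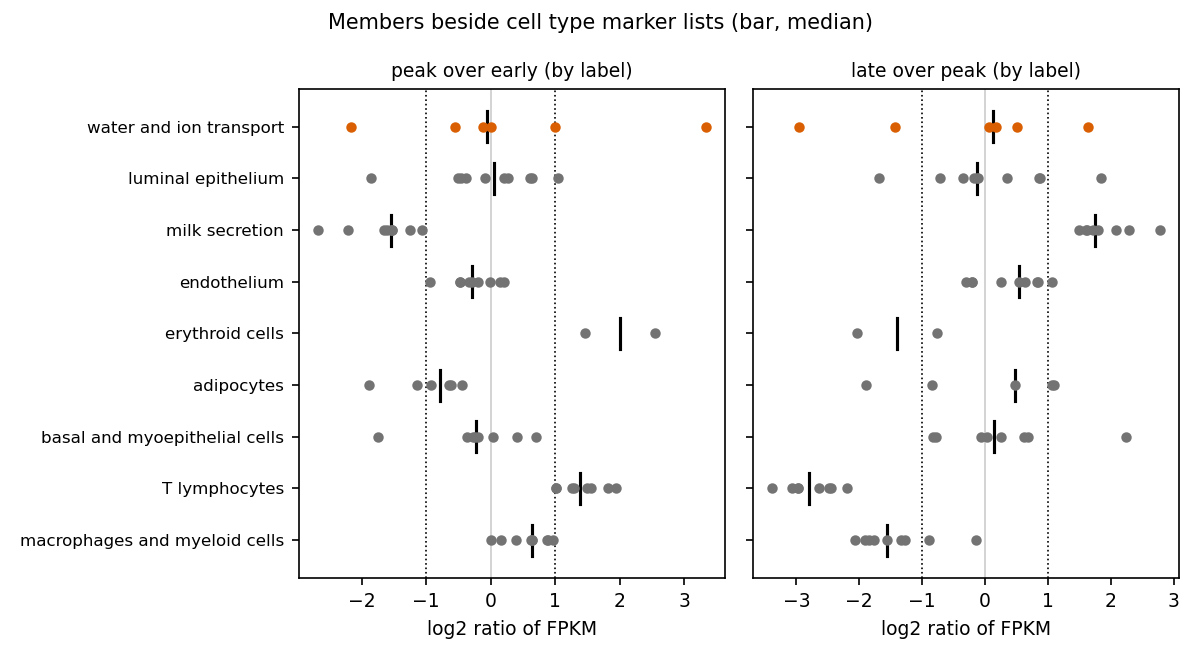
Log2 ratio of FPKM for the 6 transport genes (orange) and the genes of 8 marker lists (grey), for peak over early and late over peak lactation by label, with 1 point per gene above 0 in both libraries, black bars at the medians and the 2-fold limits dotted. Milk secretion genes are lower and T lymphocyte markers higher in the peak library, and the transport genes spread over both sides.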

How the data were processed

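The authors trimmed the reads with Trimmomatic, mapped them with TopHat2 2.0.9, assembled transcripts with Cufflinks 2.1.1 (versions from the submitters' processing notes), merged them with Cuffmerge and computed abundance with Cuffdiff. The deposited values are FPKM of 50041 loci in 1 column per library, assigned to stages by the labels. Of values with 7 digits, 97.5% end in 5, as a mean of 2 numbers would, and the step behind this is not given in the sources used here. The study's methods name a goat genome release for mapping and a RefSeq assembly for transcript assembly, and the deposited values do not say to which of these their scaffold names belong. Gene IDs were therefore matched to symbols of the ARS1.2 gene table (14403 of 15274 loci with a single ID) without using its coordinates.

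FPKM were summed by gene ID and ratios taken where both libraries were above 0, with 2-fold as the limit. No test was run, since each stage has 1 library. The depth per value is unknown. The transport genes, pathway lists and marker lists were chosen with earlier results of these data known. Named genes were the 8 transport genes, SCNN1B and SCNN1G, the 4 largest ratios each way per comparison (both values at 1 FPKM or above), and the most abundant other gene of each list. Exceptions, named after their values were seen, were NME7, ATP1B3, the marker genes and the pathway genes marked so in the text. Some genes that this rule names are not reported here. Fold calling was run on simulated data with changes set well past the limit and little noise. This checks the calculation only. It cannot show how often single pooled libraries differ 2-fold without a change. Python 3.11.15, numpy 2.4.6, pandas 2.3.3 and matplotlib 3.10.9 were used.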

Additional observations from a re-analysis of the deposited data

How the results depend on the processing

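No paired analysis was possible because there is only 1 pooled library at each stage, and for the same reason none could be left out. Of the 6 transport genes, those at least 2-fold apart between early and peak lactation numbered 1 with at least 1 FPKM required in both libraries, which leaves out CFTR by construction, and 3 at 1.5-fold, with median-centred ratios and with an equal sum over protein-coding genes, which add ATP1B1. At 4-fold, 1 was apart between peak and late lactation. None was apart between early and late lactation at 1.5-fold or under any scaling by the labels.

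Scaling each library to an equal sum over protein-coding genes shifted the median log2 ratio of all genes by 0.79 for peak over early, 0.18 for late over early and -0.61 for late over peak lactation, since milk protein genes make up much of that sum. Relative to this shift the ratios are those of the report. As absolute values, peak over early lactation became 0.67 for SLC12A2 and 0.25 for KCNN4, both below 0 before, and late over peak became -0.10 for AQP1, -0.55 for SLC12A2 and -0.44 for KCNN4, all above 0 before. AQP3, ATP1B1 and CFTR kept their directions in these comparisons. Over the 88 pathway genes, 45 were apart for peak over early, 40 of them higher in peak, and 5 for late over early. For late over peak, 41 were apart as before, but 6 higher and 35 lower in late in place of 17 and 24. Centring on luminal markers gave 12 higher and 16 lower between early and peak in place of 13 and 11.

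For the 88 pathway genes, those apart for peak over early, late over early and late over peak numbered 24, 9 and 41 by the report's settings. They numbered 6, 4 and 11 at 4-fold, 43, 17 and 51 at 1.5-fold, 15, 1 and 25 with 1 FPKM added, and 12, 2 and 23 with at least 1 FPKM in both. The last setting left 69 genes for peak over early and 69 for late over early. The shares of all protein-coding genes at these settings, and with an equal sum, were not computed. These counts therefore describe the listed genes only and cannot be set against a background. Using the highest locus of a gene changed no count, and 0.1 FPKM added left every count within 1.5 times.

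With the peak and late columns exchanged, 0 transport genes were apart for peak over early and 2 for late over early, and 9 and 24 pathway genes. Late over peak, as a log2 ratio, then became -1.64 for AQP3, 1.44 for ATP1B1, 2.96 for CFTR, 2.63 for SLC4A4, 2.38 for KCNA3, 1.58 for CLIC1, 1.62 for FXYD5, -1.96 for KCNK6, -1.87 for KCNJ15, -1.83 for LRRC8C, -1.47 for CA12, -1.52 for CA4, 2.103 for SLC9A9, 1.80 for ANO1 and -1.14 for KCNK1. That of peak over early became -0.66 for SLC4A4, -0.66 for KCNA3, -0.42 for CLIC1, -0.53 for FXYD5, 0.30 for CA12 and -1.06 for SLC9A9, and that of late over early 1.04 for SLC9A9. AQP3 then was -2.16 and CFTR 3.33 for late over early lactation. These ratios alone cannot tell whether the columns carry the right labels. The lncRNA directions given above ran against the labels for most genes matched between the P and L libraries.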
